A study of Mus musculus with 4 samples.

Results

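The genes described here make, desaturate, elongate, take up and burn fatty acids. They were chosen as the 34 members of a fixed list of mouse gene symbols, and every probe set of the value table that the platform annotation gives to one of those symbols was taken. The list was drawn up with earlier results of these data known, so counts of members beside those of all genes are descriptions. That gave 32 of the 34 genes, out of 12394 genes that the table names, through 64 of its 22690 probe sets. No probe set was named for Acsl1 or Acsl3, which are not analysed here. Of the 64, 26 belonged to 12 genes of synthesis, desaturation and elongation, 18 to 9 genes of oxidation, 4 to the acyl-CoA synthetases Acsl4 and Acsl5, 3 to the PPAR receptors and 13 to 6 genes of uptake and lipolysis.

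Total RNA came from YAMC cells, an epithelial line from the colon of young adult mice that carries a conditional immortalising gene, on 4 mouse 430A arrays. The LGG group (2 arrays) was kept for 16 h in medium conditioned by Lactobacillus GG, a probiotic bacterium, and the untreated group (2 arrays) received no treatment. Medium without bacterial products was not analysed here, so products of LGG, acid and the medium itself cannot be told apart. The array titles carry 2 dates, called date 1 and date 2, with 1 LGG and 1 untreated array at each, and do not say whether a date marks a culture, a hybridisation or a scan. Separate cultures are not named in the labels, so p-values measure only the spread between these arrays, which may be technical. The comparison asks which transcripts differ in cells kept in LGG conditioned medium.

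Fatty acids are built in the cytosol. Acly cleaves citrate to acetyl-CoA, Acaca carboxylates it to malonyl-CoA, Fasn joins the units to palmitate and Me1 supplies NADPH for the reductions. Palmitate is then elongated by Elovl enzymes, given a first double bond by Scd enzymes, and dietary essential fatty acids are further desaturated by Fads enzymes. For oxidation, Acsl enzymes activate fatty acids with CoA, Cpt1a and Cpt2 carry the acyl groups into mitochondria, and acyl-CoA dehydrogenases, the trifunctional protein of Hadha and Hadhb, Hadh and Acaa2 shorten them. SREBP-1 drives transcription of the first set of genes and PPAR receptors that of many of the second, and colonic epithelium is known for burning the short-chain acid butyrate.

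Values are linear intensities as deposited. A change is the difference between LGG and untreated cells in log2(intensity + 25.2), fitted by limma with the date as a block over all 10333 probe sets that had values on all arrays and a mean of at least 101. A probe set passed at a Benjamini-Hochberg adjusted p under 0.05. Wherever 1 array is left out below, the date cannot be kept in the fit, so differences between dates enter that change. With 1 residual and 12.5 prior degrees of freedom, each SE and p rests mostly on variance shared across genes. Arrays were on a like scale, with trimmed means of 506.1 and 500.1 in LGG cells and 513.5 and 500.1 in untreated cells. For 6307 probe sets, 18 of them members, the date 1 arrays hold no value, and these are given from date 2 alone, with 1 array a group and no test. Of the member probe sets with values on all arrays, 33 (for 23 genes) were tested and 13 were too dim. Levels of different probe sets are not comparable with each other, since probes differ in how strongly they bind.

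The labelled cell type was checked against 11 markers of colon epithelium, 3 of which were bright enough to be tested. Their summed intensity, taken over the brightest probe set of each, was 3369.2 and 2855.7 in LGG cells and 2333.3 and 3213.5 in untreated cells, most of it from the keratins Krt8, Krt18 and Krt19. Krt18 was higher on both LGG arrays than on both untreated arrays, Krt19 was lower, and Krt8 overlapped. None of these keratins passed (log2 change 0.66, -0.72 and 0.23, limma adjusted p = 0.138, 0.0693 and 0.645). The other markers of this list (Krt20, Epcam, Cdh1, Vil1, Cdx1, Cdx2, Cldn3 and Cldn7) were too dim to be tested. The list thus bore out the label through the keratins alone. Epcam read 8.5 and 9 in LGG cells and 6 and 7 in untreated cells. Cdh1 read 26 and 19.5 in LGG cells and 41.8 and 8.7 in untreated cells. Vil1 read 10.5 and 1.7 in LGG cells and 2.1 and 7.1 in untreated cells. The list of 8 fibroblast markers (7 measured) summed to 14841.2 and 13315.9 in LGG cells and 20204.1 and 17551.6 in untreated cells. Within it Dcn, a matrix proteoglycan, fell to 4084.9 and 4473.8 in LGG cells, against 7734.1 and 8376.2 in untreated cells (log2 change -0.91, limma adjusted p = 0.0014). The measured fibroblast markers other than Dcn summed to 10756.3 and 8842.1 in LGG cells and 12470 and 9175.4 in untreated cells. Among them Col1a1, Col1a2 and Pdgfra, at -0.04, -0.59 and -0.44 by their brightest probe sets, did not pass (limma adjusted p = 0.902, 0.129 and 0.29). Col1a1 measured 9138.6 and 6915.8 in LGG cells and 10156.3 and 6568.6 in untreated cells. Col3a1 had values at date 2 alone, and its brighter probe set read 6889.5 in LGG cells and 9118 in untreated cells. Of 7 macrophage markers, which summed to 952.7 and 917.3 in LGG cells and 973.5 and 757.6 in untreated cells, Cd68 rose (log2 change 1.06, limma adjusted p = 0.0314). The other 6 summed to 678.6 and 628.3 in LGG cells and 827.5 and 656.4 in untreated cells, with Csf1r at -0.12 and Cd14 at 0.01, neither passing, and Ptprc dim. Of 4 endothelial markers, which summed to 487 and 452.2 in LGG cells and 398.3 and 309 in untreated cells, Kdr rose (log2 change 1.29, limma adjusted p = 0.00924). The other 3 endothelial markers were dim and summed to 90.5 and 123 in LGG cells and 262.1 and 180.1 in untreated cells, with Tek at 36.8 and 51.4 in LGG cells and 149.4 and 96.1 in untreated cells. The part of these genes in the results below was not tested. In bulk RNA, fewer cells of a type and less RNA per cell cannot be told apart.

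Among the fatty acid genes, LGG conditioned medium went with less signal for 2 desaturases and more for a supplier of NADPH. Scd2 fell by 2 of its 3 probe sets, Fads2 fell by 1 of 2 and Me1 rose by 1 of 2, and 0 of 8 tested oxidation genes passed (limma; 1 higher and 1 lower at an unadjusted p under 0.05). In all, 1 of 33 probe sets rose, against 2.69% of all probe sets tested, and 3 of 33 fell, against 3.86%. Counted by the brightest probe set of each gene, 0 of 23 genes rose and 1 (Fads2) fell by limma (3 and 3 at an unadjusted p under 0.05), against 3.01% and 3.5% of all 6952 genes. The brightest probe sets of Scd2 and Me1 moved the same way as the others and did not pass. Both groups' arrays stood apart with LGG higher for 9 of the 33 probe sets, against 23.4% of all, and with LGG lower for 7, against 23.6%, so these counts are near the background. By gene the counts were 7 higher and 4 lower of 23, against 26.2% and 22.3% of all genes. None of the 4 calls held without the date in the fit (adjusted p 0.118 to 0.279), with dim probe sets kept in (0.117 to 0.208) or without the intensity trend (0.0612 to 0.0828). Leaving out either untreated array also ended all 4 (0.561 to 0.776), and 0 genes of the whole table then passed by limma (224 to 280 higher and 253 to 261 lower at an unadjusted p under 0.05).

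**Figure D1:**
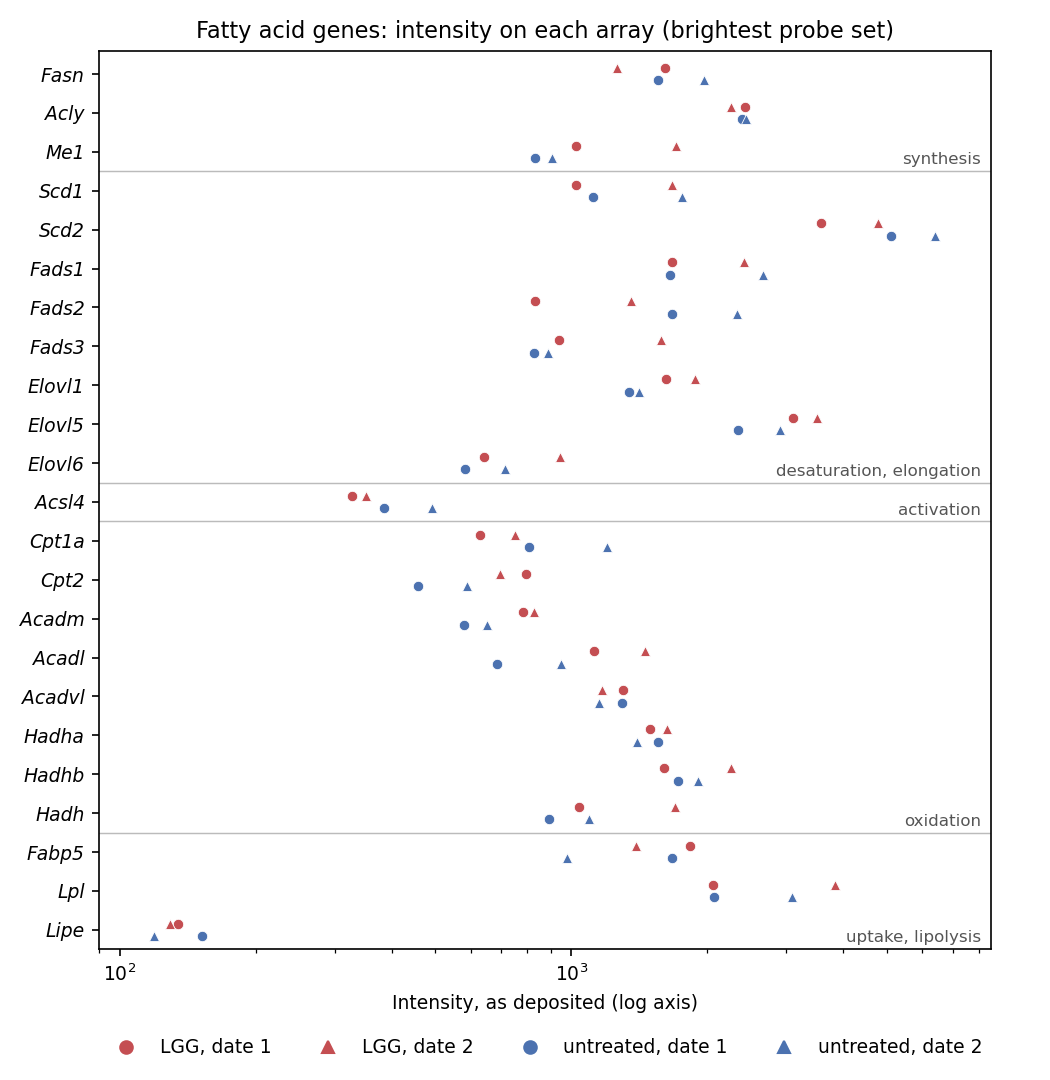
Intensity of the brightest tested probe set of 23 fatty acid genes on each array (log axis), LGG in red above untreated in blue, circles for date 1 and triangles for date 2; each point is 1 array. Fads2, Scd2, Cpt1a and Acsl4 lie lower on both LGG arrays than on both untreated arrays (4 of 23, against 22.3% of all genes). Me1, Fads3, Acadl, Acadm, Cpt2, Elovl1 and Elovl5 lie higher (7 of 23, against 26.2%).

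Scd2 encodes a stearoyl-CoA desaturase, the enzyme type that makes oleate and palmitoleate from saturated fatty acids. Its probe set 1415823_at measured 1334.3 at date 1 and 3212.9 at date 2 in LGG cells, against 3586.3 and 4966.8 in untreated cells. In log2 terms it changed by -1.02 ± 0.19 (SE here and below; limma, adjusted p = 0.00773, and 0.241 without the date block). Its probe set 1415824_at measured 235.6 and 1370.1 in LGG cells, against 1596.4 and 2065.2 in untreated cells, with a change of -1.61 ± 0.35 (adjusted p = 0.0148, and 0.279 without the block). The LGG array of date 1 was low for both, at 37.2% and 14.8% of the untreated array of that date, while at date 2 the shares were 64.7% and 66.3%. Leaving out that array gave log2 changes of -0.39 and -0.40, and leaving out the LGG array of date 2 gave -1.64 and -2.82. These fits hold no date, so differences between dates enter them and they are not ratios within a date.

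The brightest Scd2 probe set, 1415822_at, measured 3583.8 and 4796.7 in LGG cells, against 5120.8 and 6405.5 in untreated cells. Its groups did not overlap, and its log2 change of -0.46 ± 0.14 did not pass (adjusted p = 0.0692). At date 1 the 3 probe sets of this gene thus gave log2 ratios of -0.51, -1.41 and -2.64, and at date 2 they lay close together, at -0.42, -0.62 and -0.58. Where the 3 probe sets lie on the transcript is not given in the files used here. Scd1, a close paralog and the main desaturase of liver and fat, did not pass. Its brightest probe set measured 1022.3 and 1675.1 in LGG cells and 1119.9 and 1762.9 in untreated cells (log2 change -0.10 ± 0.19, adjusted p = 0.829), and its other probe set changed by -0.23 ± 0.24 (adjusted p = 0.658). Scd3, Scd2, Scd4 and Scd1 follow each other in that order on chromosome 19.

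Fads2 encodes the front-end desaturase that takes the first step from linoleic and alpha-linolenic acid to long polyunsaturated fatty acids. Its brightest probe set, 1449325_at, measured 831.6 and 1356.7 in LGG cells, against 1670.4 and 2336.1 in untreated cells. The log2 change was -0.88 ± 0.19 (limma, adjusted p = 0.0163, and 0.177 without the date block), and the date 1 and date 2 ratios were -0.98 and -0.77. Leaving out the LGG array of date 1 gave -0.53 and leaving out that of date 2 gave -1.22, again with no date in the fit. The second probe set, 1419031_at, measured 1119.1 and 1229.1 in LGG cells, against 1544.5 and 2066 in untreated cells, and did not pass (-0.60 ± 0.20, adjusted p = 0.0921). Both LGG arrays lay below both untreated arrays for each Fads2 probe set. Of the 4 member probe sets that passed, 1449325_at had the closest ratios at both dates.

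Fads2 stands between Fads3 and Fads1 in the mouse genome, in a row of 3 genes on chromosome 19, and neither neighbour passed. Fads1, which takes a later desaturation step of the same pathway, measured 1672.8 and 2420 in LGG cells and 1656.5 and 2658.5 in untreated cells (log2 change -0.06 ± 0.18, adjusted p = 0.896). Its arrays separated by date, not by group, with a log2 ratio of date 2 over date 1 of 0.53 in LGG cells and 0.67 in untreated cells. Fads3, a family member of less settled substrate, measured 941.7 and 1584.9 in LGG cells and 827.2 and 888.6 in untreated cells (0.50 ± 0.22, adjusted p = 0.224). Fads3 stood apart through the LGG array of date 2. Leaving out the LGG array of date 1 gave 0.87 and leaving out that of date 2 gave 0.13, with no date in the fit. A second Fads3 probe set was dim, at 12.1 and 18.4 in LGG cells and 39.7 and 74.1 in untreated cells. No test of the difference between the 3 genes was run.

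**Figure D2:**
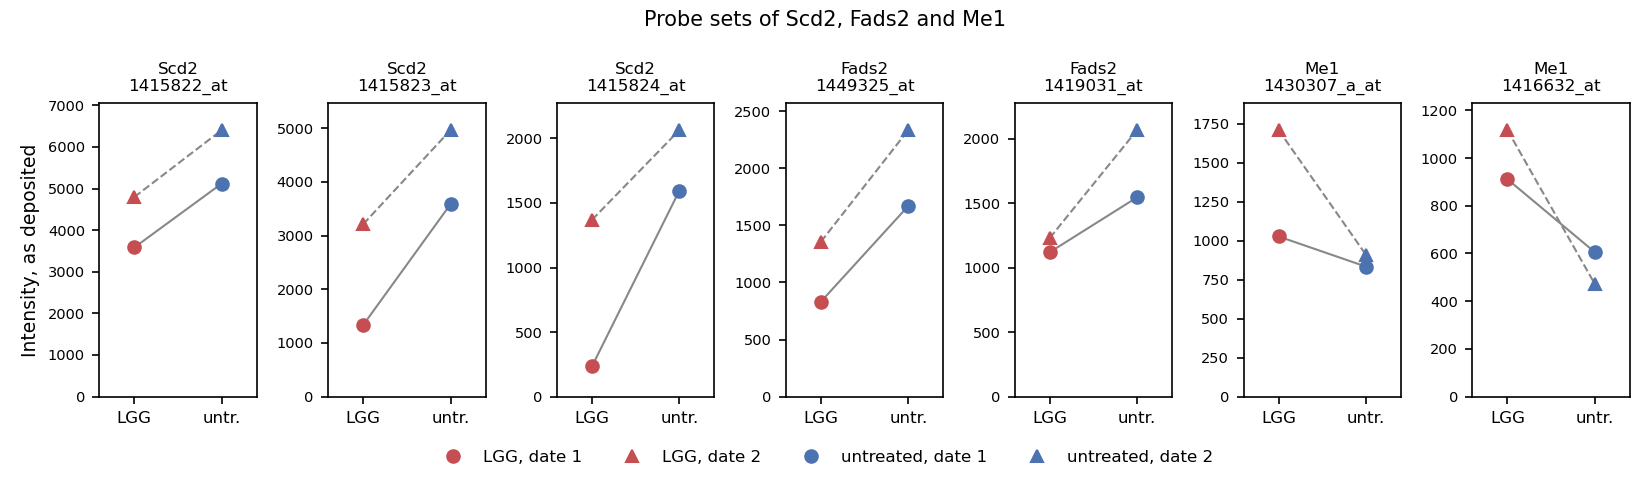
Intensity of the 7 probe sets of Scd2, Fads2 and Me1, LGG at the left and untreated at the right of each panel, with lines joining the arrays of a date (solid and circles for date 1, dashed and triangles for date 2). Every line of Scd2 and Fads2 is lower at LGG and every line of Me1 is higher at LGG, and the LGG array of date 1 is at 235.6 for Scd2 1415824_at.

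Me1 encodes cytosolic malic enzyme, which makes NADPH for lipid synthesis and is also a known target of the antioxidant regulator NRF2. Its probe set 1416632_at measured 911.1 and 1117.2 in LGG cells, against 605.3 and 471.9 in untreated cells. It rose by 0.89 ± 0.23 in log2 terms (limma, adjusted p = 0.0381, and 0.118 without the date block; 0.0564 after median scaling). The brighter probe set, 1430307_a_at, measured 1026.4 and 1708.7 in LGG cells, against 833.2 and 908.9 in untreated cells, and did not pass (0.59 ± 0.22, adjusted p = 0.138). For both probe sets the groups did not overlap and the ratio was larger at date 2, at 1.20 and 0.89, than at date 1, at 0.57 and 0.29. Leaving out the LGG array of date 1 gave 1.03 and 0.95, and leaving out that of date 2 gave 0.74 and 0.23, with no date in the fit.

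The promoters of Fads2 and Me1 are printed because these genes are the ones with a probe set that passed and an entry in the promoter table. Each window runs from 250 bases before to 50 bases after the annotated start, is read 5′ to 3′ on the gene's strand and comes from RefSeq, build GRCm38.p6. The Fads2 window is chr19:10101454-10101753 on the minus strand, with the 50 bases from the start onwards in capitals. The Me1 window is chr9:86695865-86696164 on the minus strand, with a match to TGACNNNGC, the core of the antioxidant response element bound by NRF2, in capitals.
Fads2: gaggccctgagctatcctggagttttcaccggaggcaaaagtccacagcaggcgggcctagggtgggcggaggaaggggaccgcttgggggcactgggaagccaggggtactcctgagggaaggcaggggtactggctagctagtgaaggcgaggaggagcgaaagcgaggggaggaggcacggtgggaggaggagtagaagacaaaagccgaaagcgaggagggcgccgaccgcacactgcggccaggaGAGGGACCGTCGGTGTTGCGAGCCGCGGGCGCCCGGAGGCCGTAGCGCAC
Me1: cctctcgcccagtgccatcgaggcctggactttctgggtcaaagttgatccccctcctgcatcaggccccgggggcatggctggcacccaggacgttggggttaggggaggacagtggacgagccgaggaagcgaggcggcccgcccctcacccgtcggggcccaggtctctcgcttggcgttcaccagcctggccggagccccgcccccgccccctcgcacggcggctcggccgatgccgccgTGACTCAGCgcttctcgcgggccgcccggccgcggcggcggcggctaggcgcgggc

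Motifs were searched on both strands in the 30 windows of the 25 member genes that the promoter table and the arrays share. TCACNCCAC, a form of the sterol response element of SREBP, was in 0 of the 30 windows and in 1.24% of all 32851 windows. CCAAT, the box bound by NF-Y, was in 13 of 30 windows, 6 of 11 on the synthesis side and 2 of 8 of oxidation genes, against 37.4% of all windows. CACGTG, an E-box, was in 2 windows, those of Elovl5 and Lipe, against 7.15% of all. The direct repeat bound by PPAR with RXR was in 1, of Elovl1, against 0.381% of all. TGACNNNGC, which was added after the data were seen, was in 4 windows (Fads3, Me1, Ppard and Pparg), against 12.4% of all. A match to these letters is a description of the sequence, and none of the first 4 motifs was found in the Fads2 window.

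The enzymes of palmitate synthesis itself did not pass. Fasn, the fatty acid synthase, measured 1610 and 1263.3 in LGG cells and 1558.3 and 1971.3 in untreated cells, so that its groups overlapped and its log2 ratio was 0.05 at date 1 and -0.63 at date 2 (fit -0.29 ± 0.21, adjusted p = 0.476). Acly, the ATP citrate lyase, measured 2431 and 2256.1 in LGG cells and 2387.1 and 2437 in untreated cells by its brightest probe set (-0.04 ± 0.17, adjusted p = 0.929), and its second probe set changed by -0.05 ± 0.22 (adjusted p = 0.932). Acaca, the acetyl-CoA carboxylase that commits acetyl-CoA to synthesis, had values at date 2 alone, of 159.4 in LGG cells and 194.1 in untreated cells. Another Acly probe set with values at date 2 alone read 1378.4 in LGG cells and 1634.8 in untreated cells.

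The elongases all had positive changes and none passed. Elovl1, which extends very long saturated chains, measured 1623.6 and 1876.8 in LGG cells and 1345.3 and 1413.8 in untreated cells (0.33 ± 0.19, adjusted p = 0.353). Elovl5, which extends polyunsaturated chains, measured 3107.4 and 3497.8 in LGG cells and 2343.4 and 2904.8 in untreated cells (0.33 ± 0.16, adjusted p = 0.264). For both, each LGG array lay above each untreated array. Elovl6, which takes palmitate to stearate, measured 639.5 and 944.4 in LGG cells and 582.1 and 714.9 in untreated cells (0.26 ± 0.22, adjusted p = 0.561), with overlap, and its dimmer probe set, at 208.3 and 221.9 in LGG cells and 156.2 and 206.5 in untreated cells, did not overlap (0.23 ± 0.26, adjusted p = 0.685). At date 2 alone, 2 further Elovl1 probe sets read 1824.8 and 1840.8 in the LGG array and 1169.9 and 1146.1 in the untreated array, and an Elovl5 probe set read 3145.4 in LGG cells and 2574 in untreated cells. These end in x_at, a mark of probes that can bind transcripts of other genes.

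Over the 11 genes of synthesis, desaturation and elongation that were tested, the median log2 change was -0.04 (0.05 at date 1 and -0.07 at date 2), against 0.03 over all genes (-0.02 and 0.08). Over the 8 oxidation genes tested it was 0.23, or 0.11 at date 1 and 0.24 at date 2, and 7 of the 8 changes were positive, against 3740 of 6952 genes. Of 14 other genes of mitochondrial oxidation 7 changes were positive and 7 negative (median -0.01), and of 8 peroxisomal genes 4 and 4 (median 0.001). The medians depended on which arrays were used. With 1 array left out the date could not be kept in the fit, so differences between dates enter the values that follow. Leaving out the LGG array of date 1 gave 0.25 for the synthesis side and 0.36 for oxidation, and leaving out that of date 2 gave -0.01 and 0.08. Without the untreated array of date 2 the median of the synthesis side was 0.28.

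**Figure D3:**
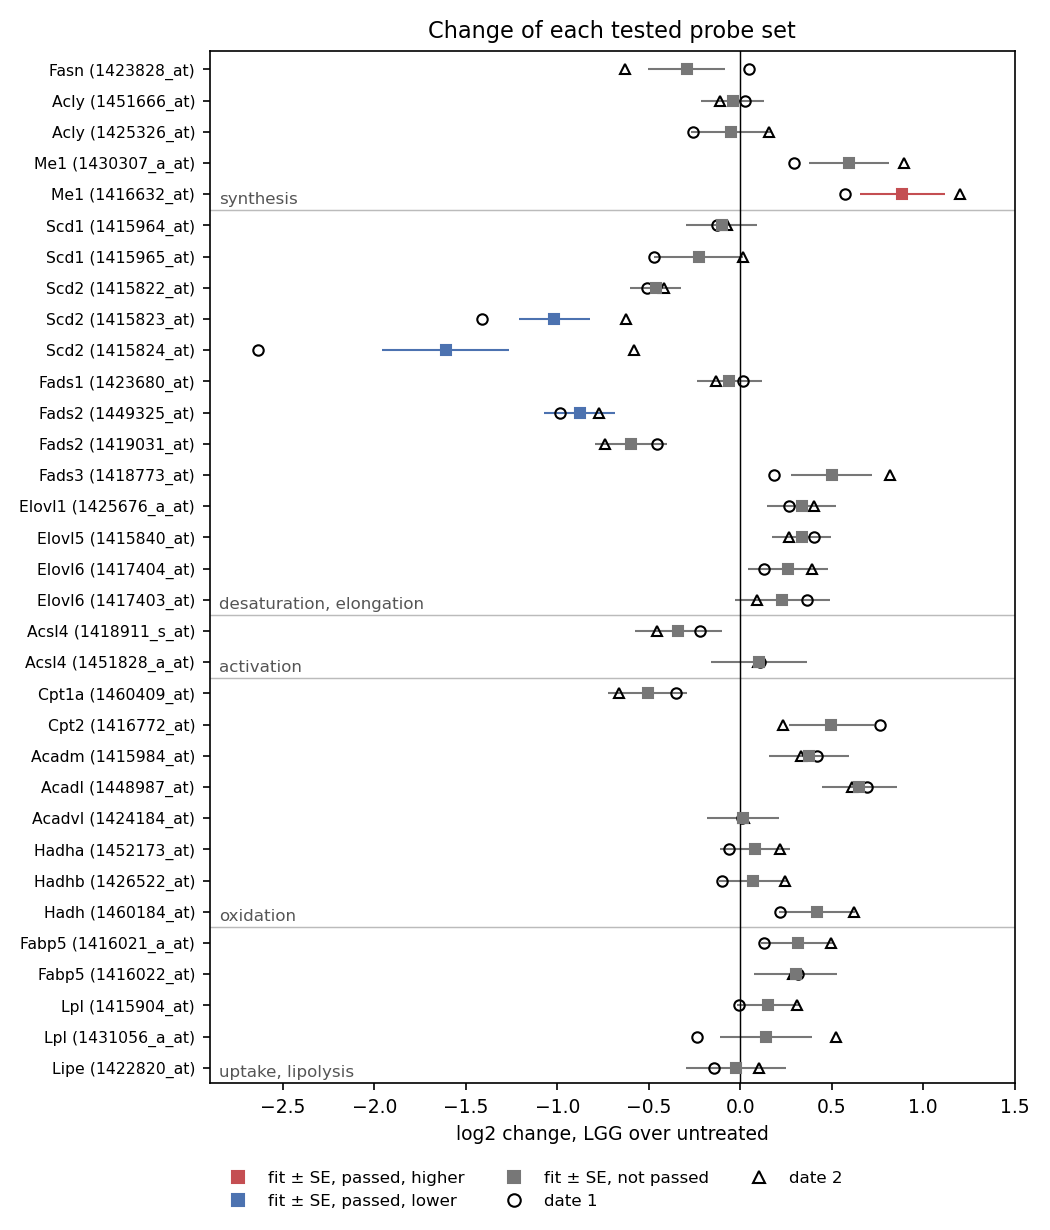
log2 change in LGG over untreated cells for the 33 tested probe sets, ordered by role; squares are the fit with its SE, in blue or red where the probe set passed, and open circles and triangles are the ratios at date 1 and date 2 (1 array a group each). The 3 blue squares belong to Scd2 and Fads2 and the red square to Me1, and the widest gap between dates is that of Scd2 1415824_at.

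In mitochondrial import, the paired carnitine transferases had changes of opposite sign. Cpt1a, the outer membrane enzyme that sets the rate of import, measured 626.7 and 749.3 in LGG cells and 806.7 and 1200 in untreated cells (-0.51 ± 0.22, limma adjusted p = 0.204). Cpt2, the inner membrane enzyme, measured 792.5 and 693.9 in LGG cells and 456.9 and 586.2 in untreated cells (0.50 ± 0.23, adjusted p = 0.247). Each had groups that did not overlap, and neither passed. At date 2 alone, 2 dim Cpt1a probe sets read 58 and 37.5 in LGG cells and 130.3 and 70.4 in untreated cells, the same direction as the bright one. The difference between the genes was not tested.

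Of the acyl-CoA dehydrogenases, Acadl came closest to the threshold. Acadl, which acts on long chains, measured 1123.1 and 1459 in LGG cells and 685.6 and 947.3 in untreated cells (0.65 ± 0.21, adjusted p = 0.0798). Its log2 ratios were 0.69 and 0.61 at dates 1 and 2, and both LGG arrays lay above both untreated arrays. Acadm, which acts on medium chains, measured 782.8 and 825.3 in LGG cells and 579.1 and 649.6 in untreated cells (0.38 ± 0.22, adjusted p = 0.367). Acadvl, which acts on very long chains at the inner membrane, measured 1304.9 and 1170.6 in LGG cells and 1296.9 and 1153.9 in untreated cells, with log2 ratios of 0.01 and 0.02 (adjusted p = 0.98). A second Acadl probe set was dim, at 52.4 to 73.2 in LGG cells and 35.8 to 52.5 in untreated cells.

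The next steps of the spiral were measured through Hadha, Hadhb, Hadh and Acaa2. Hadha and Hadhb, the alpha and beta subunits of the mitochondrial trifunctional protein, did not pass. Hadha measured 1491.3 and 1632.9 in LGG cells and 1556 and 1399.1 in untreated cells (0.08 ± 0.19, adjusted p = 0.871). Hadhb measured 1607.7 and 2260.1 in LGG cells and 1727.7 and 1907.5 in untreated cells (0.07 ± 0.19, adjusted p = 0.884). At date 2 alone a further Hadhb probe set read 810.1 in LGG cells and 751.1 in untreated cells. Their log2 ratios were -0.06 and -0.10 at date 1 and 0.22 and 0.24 at date 2, so the sign differed between the dates for both.

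These 2 genes are neighbours on chromosome 5, read in opposite directions from starts that lie close together, and their promoter windows in the table share 228 bases. The Hadhb window is printed for that reason, with the bases shared with the Hadha window in capitals. It is chr5:30155003-30155302 on the plus strand of GRCm38.p6, and the Hadha window is chr5:30154931-30155230 on the minus strand.
Hadhb: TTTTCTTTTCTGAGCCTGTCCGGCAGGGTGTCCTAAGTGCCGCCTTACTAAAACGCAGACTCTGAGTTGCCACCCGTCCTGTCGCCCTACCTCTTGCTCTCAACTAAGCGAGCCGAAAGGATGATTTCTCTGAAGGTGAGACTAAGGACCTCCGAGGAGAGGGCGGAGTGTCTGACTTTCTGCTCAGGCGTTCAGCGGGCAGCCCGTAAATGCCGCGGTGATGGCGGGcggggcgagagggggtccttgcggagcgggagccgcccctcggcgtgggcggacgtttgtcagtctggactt

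Hadh, the dehydrogenase for shorter hydroxyacyl chains, measured 1041.5 and 1697.8 in LGG cells and 891.9 and 1096.7 in untreated cells (0.42 ± 0.21, adjusted p = 0.278). Its LGG array of date 1 lay below its untreated array of date 2, so the groups overlapped. An x_at probe set of Hadh with values at date 2 alone read 4370.3 in LGG cells and 2924.2 in untreated cells. Acaa2, the mitochondrial thiolase, had 3 probe sets, all at date 2 alone. They read 936.9, 362.2 and 373.3 in LGG cells and 668.4, 457.6 and 427.9 in untreated cells, in that order, so the first was higher and the others lower in LGG cells.

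Among the acyl-CoA synthetases, Acsl4, which prefers arachidonic acid, had probe sets that did not move alike. Its s_at probe set measured 326.2 and 351.5 in LGG cells and 384.7 and 490.9 in untreated cells (-0.34 ± 0.24, adjusted p = 0.467). Its a_at probe set measured 159.7 and 198.9 in LGG cells and 146.7 and 184.2 in untreated cells (0.10 ± 0.26, adjusted p = 0.878). Another, at date 2 alone, read 335.3 in LGG cells and 688 in untreated cells, a log2 ratio of -0.98 from 1 array a group. Acsl5, a synthetase of intestinal epithelium, read 1122.5 in LGG cells and 893.3 in untreated cells at date 2 alone.

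Of the 18 member probe sets with values at date 2 alone, 12 had a mean of at least 101. Among these 12, 2 (both of Elovl1) were at least 1.5-fold higher in LGG cells, against 11.2% of the 3675 such probe sets of the table, and 1 (of Acsl4) was at least 1.5-fold lower, against 11.5%.

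**Figure D4:**
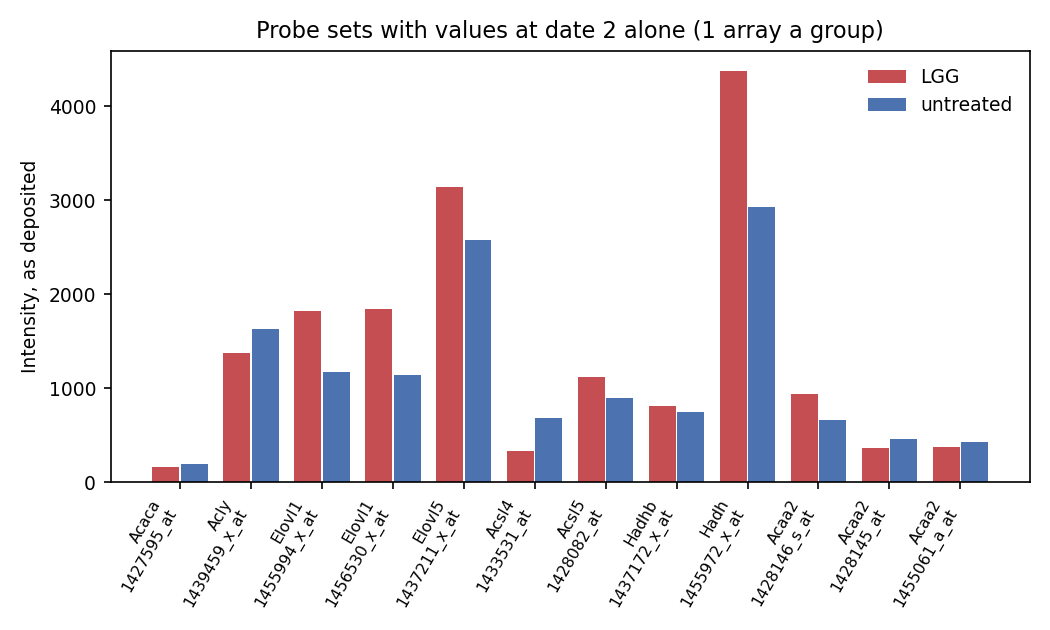
Intensity of the 12 member probe sets that had values at date 2 alone and a mean of at least 101, 1 array a group, LGG in red left of untreated in blue. At least 1.5-fold higher in LGG are 2 x_at probe sets of Elovl1 (1840.8 against 1146.1 for 1 of them), against 11.2% of such probe sets of the table. At least 1.5-fold lower is 1 of Acsl4 (335.3 against 688), against 11.5%. The rest differ by less, in both directions.

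The nuclear receptors that sense fatty acids were dim in both groups and were not tested. Ppara, the receptor that drives oxidation in liver, read 7.7 and 14.4 in LGG cells and 14.3 and 6.3 in untreated cells. Pparg, the receptor of fat cells that is also active in colon epithelium, read 7.7 and 13.6 in LGG cells and 6.7 and 3.9 in untreated cells. Ppard, the third receptor, read 4.7 and 4.3 in LGG cells and 5 and 3.7 in untreated cells. No detection call came with the values, so whether these differ from background is not known.

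Of the genes of uptake and lipolysis, Fabp5, Lpl and Lipe were bright enough to be tested, and none passed. Fabp5, the epidermal type of fatty acid binding protein, measured 1834 and 1388.7 in LGG cells and 1673 and 976.9 in untreated cells by its brightest probe set (0.31 ± 0.20, adjusted p = 0.415). It differed more by date than by group, with log2 ratios of date 2 over date 1 of -0.39 in LGG cells and -0.76 in untreated cells. Lpl, the lipoprotein lipase, measured 2063.9 and 3835.9 in LGG cells and 2070.9 and 3089.3 in untreated cells by its brightest probe set (0.15 ± 0.17, adjusted p = 0.68), which ran the other way by date, at 0.89 and 0.57. The dimmer Lpl probe set did not pass either (0.14 ± 0.25, adjusted p = 0.812). Its date ratios differed in sign, at 0.30 in LGG cells and -0.46 in untreated cells. Lipe, the hormone-sensitive lipase, lay close to the filter, at 134.7 and 129.4 in LGG cells and 151.6 and 118.9 in untreated cells (-0.02 ± 0.27, adjusted p = 0.979).

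Fabp3, Fabp4 and Cd36 were dim throughout. Fabp4, the adipocyte type of binding protein, had 4 probe sets between 2.2 and 68.6 in LGG cells and between 5.4 and 83.9 in untreated cells. Cd36, a fatty acid translocase, had 3 probe sets between 1.2 and 17.2 in LGG cells and between 1.4 and 29.5 in untreated cells, and Fabp3, the heart type, lay between 38.1 and 78 in LGG cells and between 36.5 and 93.1 in untreated cells. Of 6 adipocyte markers, 4 were measured and summed to 233.6 and 196.5 in LGG cells and 246.7 and 174.6 in untreated cells. Adipoq, the defining one, read 15.5 and 16 in LGG cells and 8.1 and 28.1 in untreated cells.

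A wider list of 107 other genes of fatty acid metabolism was looked at in the same fit. Of these, 59 were tested, 1 rose and 1 fell, against 3.01% and 3.5% of all genes, with a median log2 change of 0.06. Plin2, which coats lipid droplets, rose to 1839.8 and 1496.8 in LGG cells, against 892.4 and 871 in untreated cells (0.89 ± 0.20, limma adjusted p = 0.0182, and 0.0867 without the date block, 0.121 with dim probe sets kept in and 0.0605 without the trend). Mid1ip1, a partner that activates acetyl-CoA carboxylase, fell to 3609.6 and 2859.8 in LGG cells, against 5420.7 and 5368.3 in untreated cells (-0.74 ± 0.15, adjusted p = 0.0113, and 0.1, 0.14 and 0.106 under the same 3 settings). The groups did not overlap for either gene. Leaving out the LGG array of date 1 ended the call of Plin2 (adjusted p = 0.0604), leaving out that of date 2 ended that of Mid1ip1 (0.159), and leaving out either untreated array ended both (0.562 to 0.626).

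Of 11 other synthesis genes tested, Mid1ip1 fell and 10 did not pass. Among those 10, Srebf1, which encodes SREBP-1, measured 755.6 and 975.6 in LGG cells and 1038 and 1455.5 in untreated cells (-0.51 ± 0.21, adjusted p = 0.181), Mcat, a mitochondrial malonyltransferase, had a log2 change of -0.78 (adjusted p = 0.0853), Mlx one of 0.22 and Hacd2, a dehydratase of elongation, one of 0.22. Of 14 other genes of mitochondrial oxidation 0 passed by limma (0 higher and 1 lower at an unadjusted p under 0.05), with Echs1, the enoyl-CoA hydratase, at -0.71 (adjusted p = 0.0615), Acads, the short-chain dehydrogenase, at 0.42, Eci2 at 0.34 and Hsd17b10 at 0.26. Of 8 peroxisomal genes 0 passed (0 at an unadjusted p under 0.05 in either direction), with Acox2 at -0.40, Decr2 at 0.31, Abcd3 at 0.28 and Scp2 at -0.27.

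Of 12 genes of lipid storage and release, Plin2 rose and 11 did not pass. Lipa, the lysosomal acid lipase, measured 1340.8 and 1633 in LGG cells and 934.3 and 954.7 in untreated cells by its brightest probe set (0.63 ± 0.20, adjusted p = 0.0831), and its other probe sets had changes of 0.53 and 0.60. Dgat1, which makes triglyceride, was at 0.39, Lpin1 at -0.36 and Lpin2 at 0.35. Of 10 genes of uptake and thioesterases 0 passed (1 higher at an unadjusted p under 0.05), with Vldlr at 0.55, Acot13 at 0.37, Slc27a5 at 0.27 and Dbi at -0.24. Of 4 genes of the PPAR and RXR list 0 passed (0 at an unadjusted p under 0.05), with Rxra, the partner of the PPAR receptors, at 0.50, Nrip1 at 0.36 and Ncoa1 at 0.36.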

How the data were processed

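The values the authors deposited are linear intensities, in 1 table with a column for each array; software, background correction, scaling and filters are not given in the sources used here. Trizol extraction and Qiagen purification of the RNA are stated in the labels. Groups came from the array titles, which also give the 2 dates, each shared by 1 LGG and 1 untreated array; the dates pair the arrays, and differences between dates in LGG cells correlated at 0.27, across probe sets, with those in untreated cells. The values were used as deposited, with a pseudocount of 25.2 (5% of 504.9, the arrays' geometric mean trimmed intensity, 2% left out at each end) and a filter at a mean of 101 (20%). Of 22690 probe sets, 64 were controls and 16319 others had values on all arrays. Names came from the platform annotation (20393 probe sets with 1 symbol, 691 with several, 1606 with none; none was named from several); 20364 were found in RefSeq (GRCm38.p6) through their Entrez number, with 0 symbols changed. The fit was limma 3.58.1 under R 4.3.3 (lmFit, eBayes with an intensity trend, Benjamini-Hochberg over 10333 probe sets, two-sided), tested on simulated data, where more than the nominal share of the calls were false and many of the smaller changes were missed. A gene was represented by its brightest tested probe set. With 2 arrays a group, the smallest two-sided permutation p is 0.333. All members were named; of the wider lists, genes that passed and up to 4 others with the largest change of like sign at both dates. The members and lists were chosen with earlier results of these data known, so no set test was run. The number of arrays limits the precision. Figures used matplotlib 3.10.9.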

Additional observations from a re-analysis of the deposited data

How the results depend on the processing

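Under 8 other settings with all arrays, no tested probe set of a member, of Plin2 or of Mid1ip1 changed sign. Of the 48 values of the 6 probe sets that had passed, 29 still passed and 19 did not, each of the 6 losing its call under at least 3 settings. Most other probe sets were far from the threshold, so that they did not cross it says little. Without the replicate block (date), 0 member probe sets rose and 0 fell by limma (2 and 4 at an unadjusted p under 0.05), 0 member genes fell, and 24 genes rose and 37 fell over the whole table. With no filter on dim probe sets, 0 member probe sets rose and 0 fell (3 and 8 unadjusted), 0 member genes fell, and 0 and 0 genes passed in the table (782 and 743 unadjusted). Without the intensity trend, 0 member probe sets rose and 0 fell (3 and 5 unadjusted), 0 member genes fell, and the table gave 115 and 129. After median scaling 0 member probe sets rose (4 unadjusted), 3 fell, and 153 genes rose and 154 fell in the table. Both pseudocounts tried, quantile normalization and the filter at 50% of the trimmed mean kept 1 higher and 3 lower. The median of all genes lay between 0.01 and 0.06 in every setting.

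With 1 array left out, no block can be kept, and a lone array is assumed to vary like the other group. That lone array is also set against both dates of the other group, so differences between dates enter the change. Member probe sets called higher were then 0 to 3 and lower 0 to 3, member genes higher 0 to 2 and lower 0 to 1, and genes of the table higher 0 to 198 and lower 0 to 230. The 6 probe sets that had passed lost their call in 18 of 24 such fits. The median log2 change ran from -0.057 to 0.277 for the synthesis side and from 0.082 to 0.359 for oxidation. Of probe sets that had not passed, 14 changed sign: Scd1 from -0.45 to 0.25 and from -0.64 to 0.18, Fads1 -0.40 to 0.28, Fabp5 -0.067 to 0.694 and -0.103 to 0.706, Lpl -0.29 to 0.596 and -0.087 to 0.369, Acly -0.184 to 0.082 and -0.095 to 0.011, Acadvl -0.068 to 0.097, Hadhb -0.17 to 0.31, Lipe -0.17 to 0.13, Elovl6 -0.012 to 0.532 and Acsl4 -0.041 to 0.244. Within the dates, the log2 ratios of the brightest Scd1 probe set were -0.13 at date 1 and -0.07 at date 2, without a change of sign. Those of the tested Hadhb probe set were -0.10 and 0.24. How far differences between dates account for each change of sign was not tested.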
